A study of Mus musculus with 155 samples.

Results

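The 33 genes described here mark the extraembryonic endoderm of the mouse and were chosen by name, as genes of the primitive, parietal and visceral endoderm, among the 55471 genes of each count table. An identifier was found for 32 of them. Rhox5, a homeobox gene, was not matched and has no value here. Col4a1, Col4a2 and Plat lie on chromosome 8, which the study's methods leave out because all clones may carry a duplication of it. These 3 genes were therefore tested only in a fit that kept the chromosome, and 29 genes could enter the other fits. The genes were read in 6 groups by role, which were 9 transcription factors and cofactors, 6 genes of the basement membrane and matrix, 7 secreted serum proteins, 3 genes of endocytic uptake, 5 secreted regulators, proteases and surface proteins, and 3 keratins.

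The primitive endoderm arises from the inner cell mass of the blastocyst and gives rise to both parietal and visceral endoderm. Parietal endoderm cells lay down a thick basement membrane of laminin and type IV collagen, while visceral endoderm cells take up maternal proteins and secrete serum proteins such as alpha-fetoprotein, transthyretin and apolipoproteins. GATA6 and GATA4, with SOX17 and SOX7, are central regulators of the lineage, and retinoic acid (RA) is a classical inducer of endoderm genes in embryonal carcinoma cells and of both neural and endoderm genes in embryonic stem cells (ESCs).

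The study used KH2 mouse ESC clones that carry 1 Doxycycline (Dox)-inducible copy of SNAP- and HA-tagged histone H3.3, either WT-H3.3 or a mutant, H3.3K27M or H3.3K27L (WT, K27M and K27L cells from here on). In the mutants a lysine of the histone tail is replaced by methionine or leucine. H3.3K27M inhibits PRC2, the complex that methylates this lysine, whereas H3.3K27L lacks it without blocking PRC2 globally. Undifferentiated ESCs were profiled in 32 libraries, 8 for each line and 8 for WT cells given the PRC2 methyltransferase inhibitor GSK343, with 2 libraries at each of 4, 8, 24 and 72 h of Dox. Per the methods, ESCs were grown with LIF and with inhibitors of MEK and GSK3 (2i). RA cells, labelled as ES-derived neural progenitor cells, were grown with RA and without LIF or 2i. They gave 1 library for each line at 24 and at 72 h of Dox. OPCs (oligodendrocyte precursor cells) derived from the WT and K27M ESCs gave 1 library for each line and each of these times. All groups, the controls included, carried the transgene and received Dox. How many clones stand for each line is not given in the sources used here, so differences between lines and between clones cannot be told apart. Per the methods, Dox was added after the start of RA and the 72 h libraries end the RA course, while the RA duration of the 24 h libraries is not stated separately. Values are CPM, read counts brought to a common library size with TMM scaling. They were compared between libraries and not between genes, because the kit (3′ or whole transcript) is not given for each library.

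Library totals ran from 2239137 to 22269533 counts in RA cells, from 7499258 to 12387113 in OPCs and from 68378 to 21161392 in ESCs. Pluripotency markers summed to 1845 to 4335 CPM in ESCs and to 62.3 to 244 CPM in RA cells, and RA response genes summed to 616 to 1124 CPM in RA cells against at most 9.46 CPM in ESCs. In OPCs, markers of oligodendrocyte precursors summed to 500.4 to 536 CPM in WT and to 1712 to 1897 CPM in K27M cells. The 5 markers did not move together. Olig1, Olig2 and Cspg4 were higher in K27M, by folds of 3.99, 3.32 and 9.18, while Pdgfra and Sox10 were lower, by folds of 0.036 and 0.135. Sox10, a defining marker, was at 2.02 and 3.54 CPM in WT and at 0.148 and 0.56 CPM in K27M cells. In these bulk libraries, fewer cells of a type and less RNA per cell cannot be told apart.

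In RA cells most of the extraembryonic endoderm genes that could be tested, the keratins apart, were higher in the K27L line than in the WT line. Between K27L and WT cells, 16 of the 26 genes tested rose at least 2-fold with an adjusted p under 0.05, and none fell, in edgeR's quasi-likelihood test with Benjamini-Hochberg adjustment over all 12265 genes, where 1.52% of all genes rose. The median log2 fold change was 1.15 over the 26 genes and 0.01 over all genes. Called genes made up 6 of 8 transcription factors, 4 of 4 basement membrane genes, 1 of 4 serum proteins, 1 of 3 uptake genes, 4 of 4 secreted or surface proteins and 0 of 3 keratins. Each comparison between RA lines has 2 residual degrees of freedom. The p-values therefore weigh a difference between lines against how line differences changed between the Dox times, and not against the spread between replicate cultures.

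**Figure D1:**
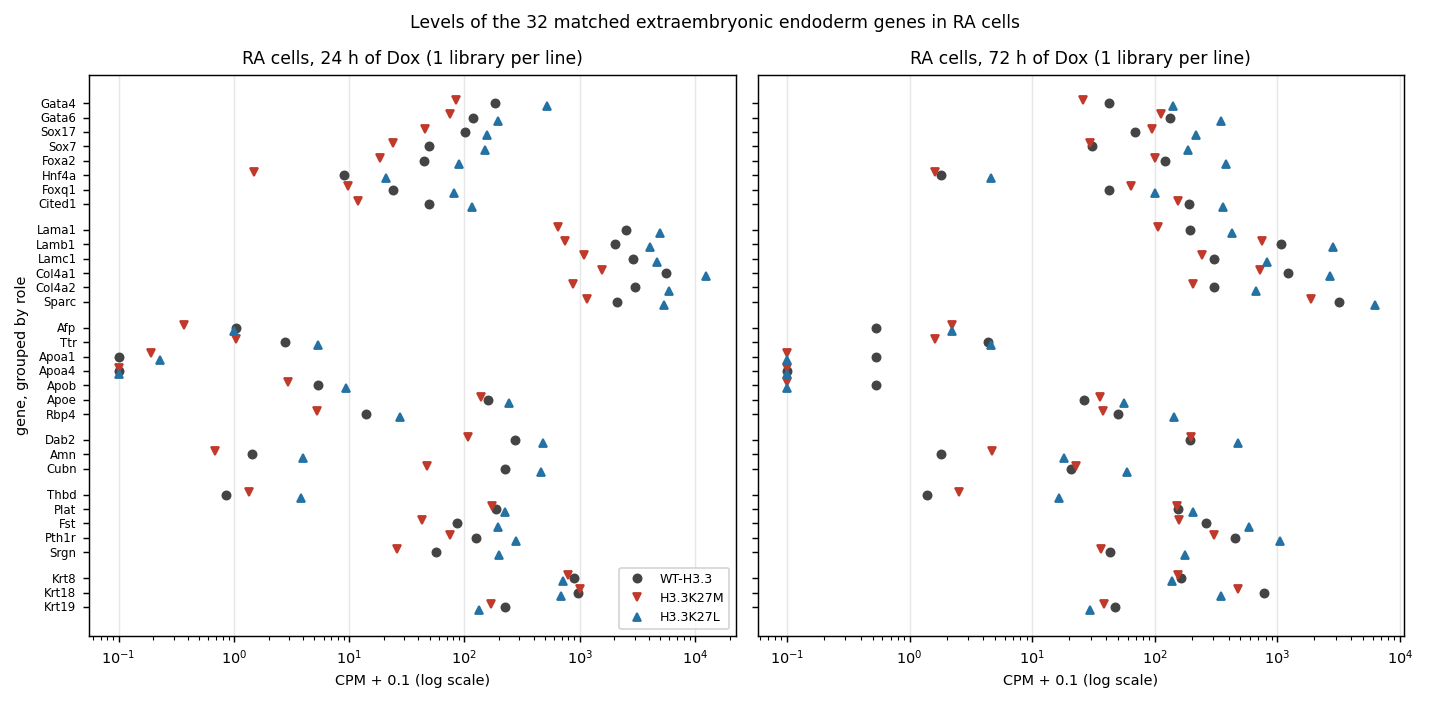
Level of each of 32 extraembryonic endoderm genes in the 6 RA libraries, grouped by role. The horizontal axis is CPM plus 0.1 on a log scale, the panels are 24 h and 72 h of Dox, and each point is 1 library of the WT, K27M or K27L line; the K27L point lies to the right for most genes outside the keratins, as for Gata4 at 521 CPM against 184 CPM in WT at 24 h.

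Among the transcription factors, Gata4 (a GATA factor of the primitive endoderm and its descendants, at mm9 chr14:63817759-63890529 on the minus strand) was at 184 CPM at 24 h and 42.1 CPM at 72 h in WT cells, at 85.3 and 25.6 CPM in K27M cells, and at 521 and 142 CPM in K27L cells. At each time K27L was highest and K27M lowest, and Gata4 was 3.0-fold higher in K27L than in WT cells (log2 fold change 1.59, SE 0.17, adjusted p = 6.2e-04, edgeR quasi-likelihood). Gata6 (the GATA factor that acts earliest in this lineage, at chr18:11052508-11085633 on the plus strand) was at 119 and 133 CPM in WT, 74.8 and 113 CPM in K27M, and 196 and 348 CPM in K27L cells. It kept the same order at both times and rose by 1.02 (SE 0.18) on the log2 scale in K27L, with an adjusted p of 0.0071. Sox7 (an F-group SOX factor active in parietal endoderm, at chr14:64562511-64569569 on the plus strand) was at 48.9 and 30.9 CPM in WT, 24.1 and 29.6 CPM in K27M, and 151 and 188 CPM in K27L cells. Both K27L libraries exceeded all others for Sox7 and its rise of 2.02 (SE 0.22) was the largest of the called transcription factors. Sox17 (the related factor of endoderm, at chr1:4481009-4486494 on the minus strand) was at 102 and 68.7 CPM in WT, 45.4 and 95.2 CPM in K27M, and 158 and 219 CPM in K27L cells. It rose in K27L by 1.04 (SE 0.28, adjusted p = 0.0461), while WT and K27M changed order between the times.

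Foxa2 (a forkhead factor of visceral and definitive endoderm, at chr2:147868613-147872705 on the minus strand) was at 44.5 and 121 CPM in WT, 18.3 and 101 CPM in K27M, and 89.3 and 382 CPM in K27L cells. Its rise in K27L was 1.30 (SE 0.22, adjusted p = 0.0054, edgeR), and within each time the order was the one seen for Gata4. Foxq1 (a forkhead factor) was at 23.9 and 42.5 CPM in WT, 9.72 and 64.1 CPM in K27M, and 80.9 and 101 CPM in K27L cells, a rise of 1.56 (SE 0.42, adjusted p = 0.0455) whose 2 K27L values exceeded all others. Hnf4a (a nuclear receptor of the visceral endoderm) was at 8.91 and 1.72 CPM in WT, 1.39 and 1.53 CPM in K27M, and 20.8 and 4.54 CPM in K27L cells. Cited1 (a transcriptional cofactor) was at 49.1 and 188 CPM in WT, 12 and 155 CPM in K27M, and 116 and 362 CPM in K27L cells. Both kept the order K27L, WT, K27M at each time but did not pass against WT, with log2 differences of 1.21 (SE 0.43) and 1.12 (SE 0.36) for Hnf4a and Cited1.

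The basement membrane genes off chromosome 8 all rose in K27L cells. Lama1 (the alpha-1 chain of the early embryonic laminin) was at 2542 CPM at 24 h and 193 CPM at 72 h in WT cells, 654 and 107 CPM in K27M cells, and 4988 and 427 CPM in K27L cells. Lamb1 (its beta chain) was at 2025 and 1075 CPM in WT, 751 and 747 CPM in K27M, and 4042 and 2835 CPM in K27L cells. Lamc1 (its gamma chain) was at 2909 and 304 CPM in WT, 1090 and 244 CPM in K27M, and 4697 and 826 CPM in K27L cells. The 3 laminin chains thus had the order K27L, WT, K27M at both times, and rose in K27L over WT by 1.03 (SE 0.25), 1.17 (SE 0.23) and 1.01 (SE 0.25) on the log2 scale (adjusted p = 0.0314, 0.0125 and 0.0299, edgeR). Sparc (a collagen-binding matrix protein made in quantity by parietal endoderm) was at 2102 and 3206 CPM in WT, 1157 and 1876 CPM in K27M, and 5432 and 6217 CPM in K27L cells. Its libraries did not overlap between the lines, and it rose by 1.16 (SE 0.22, adjusted p = 0.00984).

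Col4a1 and Col4a2 encode the chains of the main type IV collagen and start 21 bases apart on opposite strands of chromosome 8. Col4a1 was at 5644 and 1231 CPM in WT, 1568 and 719 CPM in K27M, and 12578 and 2678 CPM in K27L cells. Col4a2 was at 3028 and 306 CPM in WT, 882 and 206 CPM in K27M, and 6025 and 673 CPM in K27L cells. In the fit that kept chromosome 8, both rose in K27L over WT, Col4a1 by 1.15 (SE 0.28, adjusted p = 0.0333) and Col4a2 by 1.06 (SE 0.28, adjusted p = 0.0413, edgeR). At 24 h chromosome 8 held 7.06%, 6.5% and 7.96% of all counts in WT, K27M and K27L, and 6.15%, 6.25% and 6.03% once these genes were set aside. The order of the lines in the share of chromosome 8 was therefore not seen without the collagen pair.

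Most serum protein genes were barely detected. Rbp4 (retinol-binding protein, the carrier of retinol in serum) was at 14.0 and 50.2 CPM in WT, 5.15 and 37.8 CPM in K27M, and 27.3 and 144 CPM in K27L cells, and rose by 1.24 (SE 0.23, adjusted p = 0.00998, edgeR) in K27L. Apoe (apolipoprotein E) was at 160 and 26.2 CPM in WT, 141 and 35.7 CPM in K27M, and 244 and 56.3 CPM in K27L cells, a difference of 0.77 (SE 0.19) that stayed under the 2-fold threshold. Ttr (transthyretin, the carrier of thyroid hormone) was at 2.65 and 4.29 CPM in WT, 0.941 and 1.53 CPM in K27M, and 5.30 and 4.54 CPM in K27L cells. Apob (apolipoprotein B) was at 5.31 and 0.429 CPM in WT, 2.87 and 0 CPM in K27M, and 9.31 and 0 CPM in K27L cells, so it was detected mainly at 24 h. Afp (alpha-fetoprotein) was between 0.269 and 2.14 CPM and Apoa1 (apolipoprotein A1) at most 0.429 CPM. Apoa4 (apolipoprotein A4) was at 0 in all 42 libraries. A count of 3 corresponds to 0.134 to 1.29 CPM in the RA libraries, a limit that covers counting error only, so these genes of the mature visceral endoderm were near the limit of detection.

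Among uptake genes, Dab2 (an endocytic adaptor of the visceral endoderm, at chr15:6249788-6390712 on the plus strand) was at 277 and 194 CPM in WT, 108 and 197 CPM in K27M, and 484 and 476 CPM in K27L cells. Both K27L values lay above all others, but the log2 difference from WT was 1.00 (SE 0.26, adjusted p = 0.0387, edgeR) and fell just under the 2-fold threshold. Cubn (cubilin, a receptor that takes up maternal proteins) was at 224 and 20.6 CPM in WT, 47.7 and 22.6 CPM in K27M, and 465 and 59.0 CPM in K27L cells, with a log2 difference of 1.13 (SE 0.36) that did not pass. Amn (amnionless, the membrane partner of cubilin) was at 1.33 and 1.72 CPM in WT, 0.582 and 4.58 CPM in K27M, and 3.88 and 18.2 CPM in K27L cells, and rose by 2.42 (SE 0.57, adjusted p = 0.0265). This rise was from low counts, 7 and 4 in the WT libraries.

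All secreted and surface proteins off chromosome 8 rose in K27L. Srgn (serglycin, the core protein of an intracellular proteoglycan, at chr10:61956581-61990199 on the minus strand) was at 56.1 and 42.9 CPM in WT, 26 and 36.3 CPM in K27M, and 199.9 and 175 CPM in K27L cells, a rise of 1.89 (SE 0.21, adjusted p = 7.8e-04, edgeR). Fst (follistatin, an inhibitor of activin) was at 85.9 and 262 CPM in WT, 43.0 and 156 CPM in K27M, and 195 and 587 CPM in K27L cells. Pth1r (the parathyroid hormone receptor, an early marker of parietal endoderm) was at 126 and 449 CPM in WT, 74.9 and 305 CPM in K27M, and 279 and 1048 CPM in K27L cells. Fst and Pth1r thus increased with Dox time in every line and kept the same order of lines, with rises of 1.16 and 1.17 in K27L over WT (adjusted p = 0.00309 for each). Thbd (thrombomodulin, a cell surface regulator of clotting that parietal endoderm expresses) was at 0.758 and 1.29 CPM in WT, 1.25 and 2.44 CPM in K27M, and 3.75 and 16.3 CPM in K27L cells, a rise of 2.97 (SE 0.57, adjusted p = 0.0113) from low counts. Plat (tissue plasminogen activator) was between 153 and 227 CPM in all 6 libraries and did not pass, with a log2 difference of 0.34 (SE 0.15).

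The keratins of simple epithelia did not share this order. Krt8 was at 893 and 163 CPM in WT, 798 and 154 CPM in K27M, and 712 and 139 CPM in K27L cells. Krt18, its partner in the filament, was at 976 and 781 CPM in WT, 1012 and 479 CPM in K27M, and 685 and 347 CPM in K27L cells. Krt19 was at 225 and 47.2 CPM in WT, 169 and 38.8 CPM in K27M, and 133 and 29.7 CPM in K27L cells. K27L had the lowest value of each keratin at each time, with log2 differences from WT of -0.30, -0.87 and -0.73, none of which reached 2-fold.

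**Figure D2:**
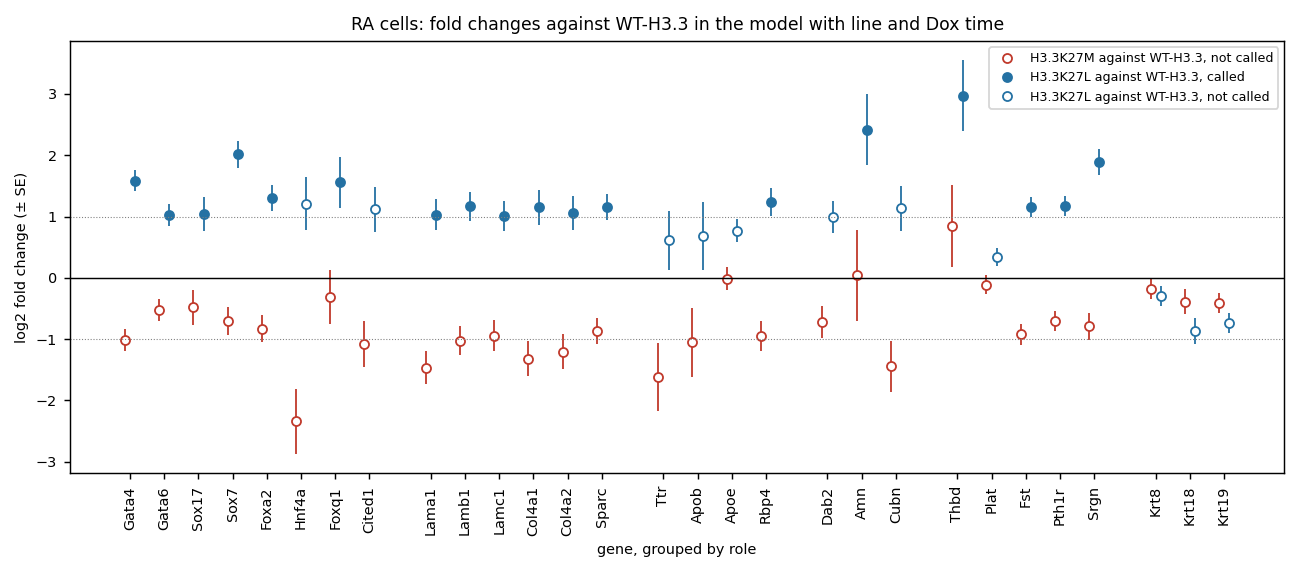
Log2 fold change of each gene in RA cells for K27M and for K27L against WT, with the SE as bars, filled points for genes that passed the test and dotted lines at a 2-fold difference. The vertical axis is the log2 fold change. Points of K27L lie mostly above 0, with 16 of the 26 genes off chromosome 8 filled. Col4a1 and Col4a2, from the fit that kept chromosome 8, are filled for K27L too. Points of K27M lie mostly below 0, with 0 of the 26 filled and none of the chromosome 8 genes. The keratins lie below 0 in both.

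Between K27M and WT cells most genes were lower in K27M, but none of the 26 passed, against 0.0163% of all genes (2 of 12265), while 18 of the 26 had an unadjusted p under 0.05 in edgeR's test, as did 755 of all genes. The log2 difference was below 0 for 24 of the 26 genes, with a median of -0.81 against 0.02 over all genes. Gata4 had a log2 difference of -1.02 (SE 0.18), Fst of -0.92 (SE 0.17) and Hnf4a of -2.34 (SE 0.53), with adjusted p-values of 0.091, 0.091 and 0.172. DESeq2 called 3 genes lower in K27M (Gata4, Lama1 and Lamb1). The median log2 difference of the genes tested depended on single libraries. It was -1.105 without the RA WT library of 72 h and -1.18 without the RA K27M library of 72 h. It was -0.57 without the RA WT library of 24 h and -0.42 without the RA K27M library of 24 h.

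In CPM, K27M cells lay further below WT cells at 24 h of Dox than at 72 h. The median ratio of K27M to WT was 0.442 at 24 h, with 28 of 30 genes below 1, and 0.822 at 72 h, with 21 of 27 below 1, whereas the median over all genes was 1.09 and 1.01. Of all 12265 genes tested in RA cells, 34.2% at 24 h and 47.8% at 72 h were lower in K27M than in WT. The 24 h libraries differed in depth, with 22269533 counts in K27M and 5050115 in WT. By role, the 24 h ratio was 0.331 for the basement membrane, 0.428 for transcription factors and 0.894 for keratins. The ratio of K27L to WT had medians of 2.0 at 24 h and 2.38 at 72 h. With 1 library for each line and time, the change between the times was not tested.

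K27L against K27M gave the most calls of the 3 line comparisons. Of the 26 genes, 22 were higher in K27L, against 3.58% of all genes, and none was lower, with a median log2 difference of 2.10 against -0.03 over all genes. All 8 transcription factors, 4 of 4 basement membrane genes, 3 of 4 serum proteins, 3 of 3 uptake genes and 4 of 4 secreted or surface proteins rose, and 0 of 3 keratins. Sox7 differed by 2.72 (SE 0.23, adjusted p = 3.2e-05), Srgn by 2.68 (SE 0.22, adjusted p = 2.6e-05), Gata4 by 2.60 (SE 0.18, adjusted p = 6.07e-06), Lama1 by 2.49 (SE 0.27, adjusted p = 1.6e-04) and Hnf4a by 3.55 (SE 0.49, adjusted p = 6.87e-04) in edgeR's test. Dab2, Cited1, Cubn and Ttr, which did not pass against WT, differed by 1.72 (SE 0.27), 2.19 (SE 0.37), 2.57 (SE 0.41) and 2.23 (SE 0.49). Apoe was the gene outside the keratins that was not called, at 0.78 (adjusted p = 0.0148).

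The full order K27L, WT, K27M held at both Dox times for 15 of the 26 genes, against 5.50% of all genes. These were Gata4, Gata6, Sox7, Foxa2, Hnf4a, Cited1, the laminin chains, Sparc, Ttr, Rbp4, Fst, Pth1r and Srgn, and the 3 chromosome 8 genes had it too. Since both sides share the WT libraries, a high or low WT value moves both differences.

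These line comparisons rest on the Dox time term, since the common dispersion was 0.0177 with it and 0.459 without it. With both times pooled, as the study's methods describe, 0 of 26 genes passed for K27L against WT and 0 of 26 against K27M, with 3 and 9 at an unadjusted p under 0.05. Leaving out 1 library at a time gave 8 (without the WT library of 72 h) to 21 genes for K27L against WT, and 11 (without the K27M library of 24 h) to 22 against K27M.

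Marker lists of other cell types were read in the same RA libraries. Fibroblast markers (8 of 8 detected) summed to 154.5 to 276 CPM in WT, 120.3 to 430.2 CPM in K27M and 50.6 to 255 CPM in K27L, and neural progenitor markers (5 of 6 matched) to 85.4 to 271, 98.6 to 437 and 44.8 to 146.5 CPM. Markers of definitive or anterior endoderm summed to 17.2 to 23.9, 22.6 to 27.9 and 22.1 to 22.7 CPM, with Cer1 at 0 in all 6 libraries and T at 0 in WT. Trophoblast markers summed to 64.5 to 109, 63.6 to 94.0 and 53.9 to 58.7 CPM, with Tpbpa at 0 in all 6 libraries and Elf5 at 0 in WT and K27L, and pluripotency markers to 66.1 to 104, 62.3 to 69.1 and 207 to 244 CPM. Klf4 gave 199.6 and 195 CPM of the K27L pluripotency sum and was the single one of the 3 markers tested off chromosome 8 that rose over WT, while Pou5f1 was at most 5.17 CPM in K27L. The pluripotency marker Zfp42 lies on chromosome 8 and is not among these 3. At 24 and 72 h it held 263 and 31 counts in K27L, in libraries of 7464040 and 3268238 counts. In WT it held 82 and 3 counts, in libraries of 5050115 and 2239137 counts. RA response genes summed to 621 to 671, 616 to 673 and 656 to 1124 CPM. They did not move as a set, since Cyp26a1 was at 473 and 971 CPM in K27L against 326 and 408 CPM in WT, whereas Hoxb1 fell by 1.5 (adjusted p = 0.0051) and Dhrs3 fell by 1.06 (adjusted p = 0.0219) in K27L on the log2 scale (edgeR). The part of these differences in the endoderm results was not tested.

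**Figure D3:**
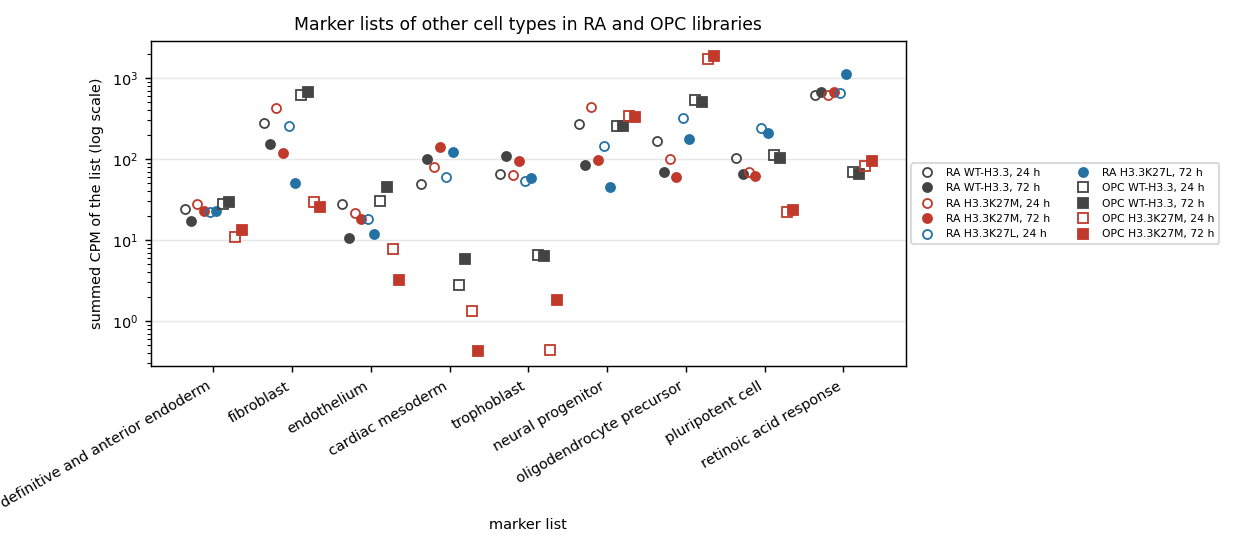
Summed CPM, on a log axis, of 9 marker lists in each RA and OPC library, 1 point for each library. In RA cells the pluripotency sum is highest in K27L (207 to 244 CPM, of which Klf4 gives 199.6 and 195 CPM), and in OPCs fibroblast markers are at 612.5 to 679 CPM in WT and 25.5 to 29.7 CPM in K27M.

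Dox time split the genes. Between 72 and 24 h in RA cells, 8 of 26 genes rose and 9 fell at least 2-fold, against 20.0% and 22.9% of all genes, so the shares of called genes were near or above those of the whole table. Foxa2 rose by 2.26 (SE 0.18), Cited1 by 2.63 (SE 0.31), Rbp4 by 2.63 (SE 0.19), Pth1r by 2.17 (SE 0.14) and Fst by 1.93 (SE 0.14) on the log2 scale, and Foxq1, Amn and Thbd rose too. Lama1 fell by 3.06 (SE 0.22) and Lamc1 fell by 2.40 (SE 0.21), whereas Lamb1, at -0.24, did not pass. Gata4, Hnf4a, Apob, Apoe, Cubn, Krt8 and Krt19 also fell, Gata4 by a log2 difference of -1.67 (SE 0.14). In these counts the laminin chains of 1 trimer did not move together between the times, although they did between lines. The kit of each library is not given. Dox time, the time since the start of RA and the kit therefore cannot be told apart, for the laminin chains as well.

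Against ESCs of the same line at 24 and 72 h of Dox, most of the genes rose in RA cells. Of 27 genes tested, 22 rose in WT, 23 in K27M and 25 in K27L, against 20.5%, 22.6% and 20.9% of all genes. Apoe was the single gene that fell in each line, by -3.19 (SE 0.28), -2.99 (SE 0.27) and -2.71 (SE 0.27), against 24.1%, 23.8% and 22.7% of all genes. In ESCs Apoe was at a lowest value of 487, a median of 584 and a highest of 828 CPM in WT, above all 6 RA libraries. Gata6 was at a median of 0.296 CPM (0.137 to 0.776) and Foxa2 at 0.0731 CPM (0 to 0.278) in WT ESCs, so both were nearly absent before differentiation, and they rose in WT RA cells by 9.21 (SE 0.30) and 10.46 (SE 0.40) on the log2 scale. These sizes depend on the prior count, since Foxa2 and Gata6 held 0 to 3 counts in each WT ESC library compared. Gata4 at a median of 5.13 CPM and Hnf4a at 2.85 CPM were detected in ESCs, and Hnf4a did not pass between RA cells and ESCs in WT (log2 difference 0.61, SE 0.48). Lamc1 was already at a median of 553 CPM (321 to 795) in WT ESCs and differed by 0.78 (SE 0.27), whereas Lamb1, at 37.5 CPM (28.4 to 49.2), rose by 5.25 (SE 0.26). Krt18 rose by 6.12 (SE 0.21) from a median of 10.7 CPM, and Dab2 rose by 6.14 (SE 0.34) from 2.98 CPM. The kit of each library is not given, so cell state and kit cannot be told apart in these comparisons. RLE in place of TMM scaling moved the median log2 difference of all genes from -0.14 to 0.14 in WT, from -0.04 to 0.19 in K27M and from -0.06 to 0.18 in K27L, and the calls that were higher from 3260 of 7092 to 3978 of 6905, from 3599 of 7388 to 4233 of 7332 and from 3323 of 6943 to 4044 of 6936, while 23, 23 and 25 of the 27 genes were higher.

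**Figure D4:**
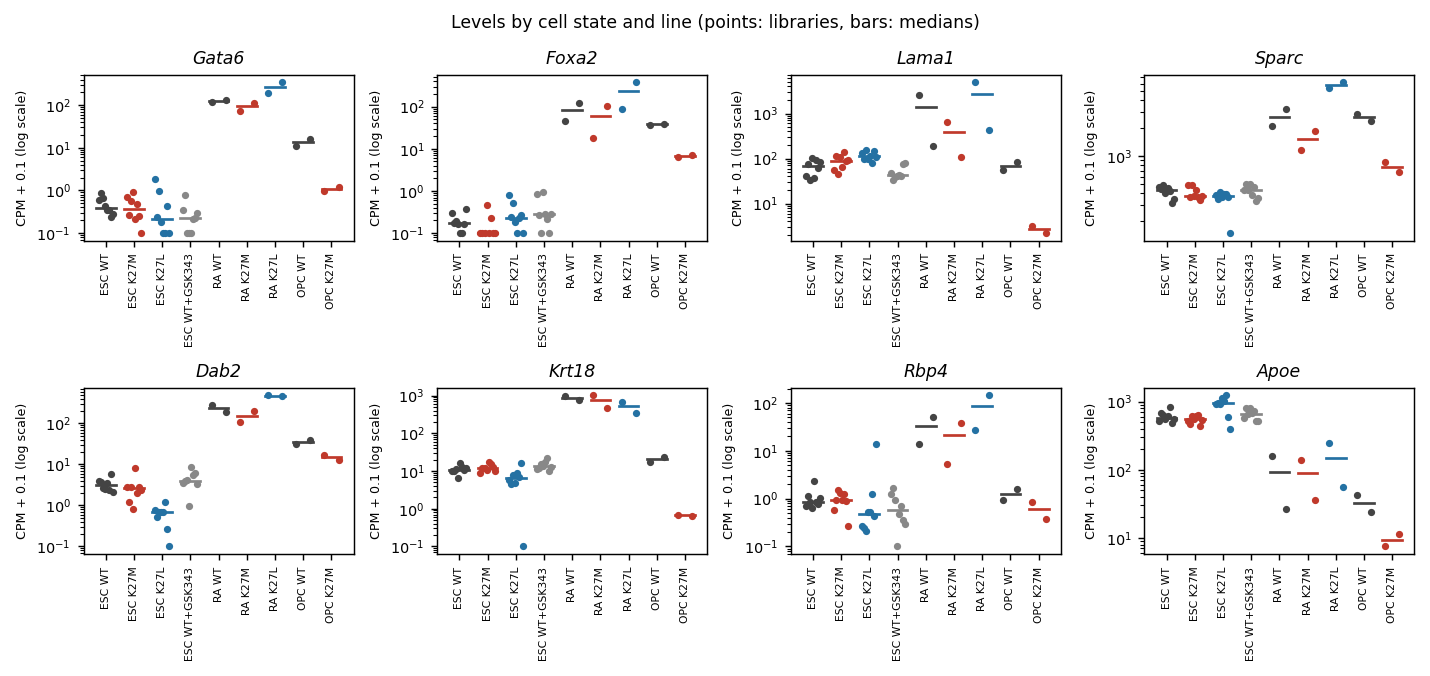
CPM of Gata6, Foxa2, Lama1, Sparc, Dab2, Krt18, Rbp4 and Apoe, on a log axis, in the ESC, RA and OPC groups, with points for libraries and bars for group medians. Gata6 and Foxa2 are near 0 in ESCs and high in RA cells, while Apoe is highest in ESCs (487 to 828 CPM in WT).

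In ESCs few of these genes were called between the lines. Of 18 genes tested over 14076, 0 passed between K27M and WT (0.0142% of all genes, 1612 of which had an unadjusted p under 0.05, as had 5 of the 18), DESeq2 calling 0 as well. With GSK343, 0 of 18 passed (0% of all genes, 621 at an unadjusted p under 0.05, with 3 of the 18), by DESeq2 also 0. In K27L, 1 of 18 fell (2.83% of all genes) and none rose. This gene was Dab2, at a lowest value of 2.04, a median of 2.98 and a highest of 5.63 CPM in WT and of 0, 0.582 and 1.13 CPM in K27L, without overlap, and it fell by 2.74 (SE 0.45, adjusted p = 4.1e-04, edgeR) on the log2 scale. In K27M ESCs Dab2 was at 0.733, 2.51 and 8.16 CPM and overlapped WT. Fst (0.91, SE 0.19), Lama1 (0.85, SE 0.25) and Apoe (0.52, SE 0.11) had adjusted p-values under 0.05 in K27L with differences under 2-fold. The K27L ESC libraries were not alike. Chromosome 8 held 3.43% to 4.07% of counts in those of replicate 2, against 5.61% to 5.86% in those of replicate 1. The replicate 2 library of 72 h held only 68378 counts. How the K27L calls changed without replicate 2 is given with the processing below.

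Of 27 genes, Dab2 and Srgn were the 2 called for a difference between K27L and WT that differed between RA cells and ESCs. Over the 27 genes the median of this quantity was 1.47 on the log2 scale, against 0.08 over all genes. An unadjusted p under 0.05 in edgeR's test was reached by 14 of the 27 and by 1482 of all 15923 genes. The RA difference minus the ESC difference was 4.12 (SE 0.79, adjusted p = 0.023) for Dab2 and 3.45 (SE 0.66, adjusted p = 0.02) for Srgn in edgeR's test, against 0.201% of all genes that were called higher. In the 4 K27L ESC libraries compared, Dab2 held 4, 9, 1 and 0 counts and Srgn 4, 5, 1 and 0 counts. For Dab2 the lines were thus in opposite order, K27L lowest in ESCs and highest in RA cells. Neither gene was called without any one of the ESC WT or ESC K27L libraries of 72 h replicate 1, the RA WT library of 72 h, or either RA K27L library, and Srgn was not called without the ESC WT library of 24 h replicate 1. For K27M, 0 of 27 genes had such a difference (0% of all genes, with 712 genes and 6 of the 27 at an unadjusted p under 0.05 in edgeR's test), also by DESeq2.

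Dab2 and Srgn were called for a difference between K27L and WT that differed between RA cells and ESCs. Lamb1 had the largest laminin rise in K27L, and Krt8 is a keratin that did not rise. Promoters are shown for these 4 genes. Each is the 250 bases before a RefSeq transcript start in GRCm38.p6, read 5′ to 3′ on the strand of the gene, at chr15:6299539-6299788 (plus strand, Dab2), chr10:62527446-62527695 (minus strand, Srgn), chr12:31265043-31265292 (plus strand, Lamb1) and chr15:102004343-102004592 (minus strand, Krt8). Capitals mark a GATA motif, searched as AGATAA or TGATAA on both strands.
Dab2: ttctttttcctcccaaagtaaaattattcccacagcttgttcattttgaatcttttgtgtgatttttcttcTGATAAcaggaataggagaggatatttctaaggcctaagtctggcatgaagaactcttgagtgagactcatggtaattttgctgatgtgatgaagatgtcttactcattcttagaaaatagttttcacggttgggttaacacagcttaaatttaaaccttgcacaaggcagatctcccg
Srgn: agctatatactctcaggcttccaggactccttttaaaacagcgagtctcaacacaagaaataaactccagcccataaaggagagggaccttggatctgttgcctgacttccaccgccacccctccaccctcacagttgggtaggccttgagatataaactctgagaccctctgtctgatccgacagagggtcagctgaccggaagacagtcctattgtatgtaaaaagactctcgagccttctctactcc
Lamb1: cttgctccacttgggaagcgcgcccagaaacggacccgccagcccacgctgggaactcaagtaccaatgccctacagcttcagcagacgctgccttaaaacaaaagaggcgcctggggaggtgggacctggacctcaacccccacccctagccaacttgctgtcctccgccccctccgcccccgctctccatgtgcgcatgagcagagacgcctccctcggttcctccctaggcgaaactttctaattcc
Krt8: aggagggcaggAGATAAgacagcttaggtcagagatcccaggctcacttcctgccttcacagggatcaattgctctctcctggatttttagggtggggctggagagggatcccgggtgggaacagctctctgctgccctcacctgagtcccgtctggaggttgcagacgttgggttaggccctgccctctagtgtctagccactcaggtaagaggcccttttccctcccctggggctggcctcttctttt

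The table held 33 promoters of 21 of the 33 genes. The GATA letters were present in 4 of the 33 promoters (Foxa2, Hnf4a, Dab2 and Krt8) against 16.6% of all 32851 promoters, a SOX motif (AACAAT) in 1 (Rhox5) against 9.42%, and a FOX motif (TGTTTAC) in 1 (Rbp4) against 3.17%. In Dab2 the letters lie 179 bases before the start and in Krt8 239 bases. A match describes the letters of this window alone and is not a binding site.

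In OPCs the genes were lower in K27M than in WT almost without exception. Of 20 genes tested, 19 fell at least 2-fold, against 15.0% of all 12511 genes, with a median log2 difference of -3.79 against 0.00 over all genes. All of the basement membrane genes, keratins and secreted or surface proteins that were tested fell, as did 5 of 6 transcription factors. Cited1 was the gene that did not pass, at 29.0 and 28.3 CPM in WT and 35 and 35 CPM in K27M (log2 difference 0.30, SE 0.16, adjusted p = 0.14, edgeR). The largest falls among the called genes were those of Fst, Srgn and Krt18.

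**Figure D5:**
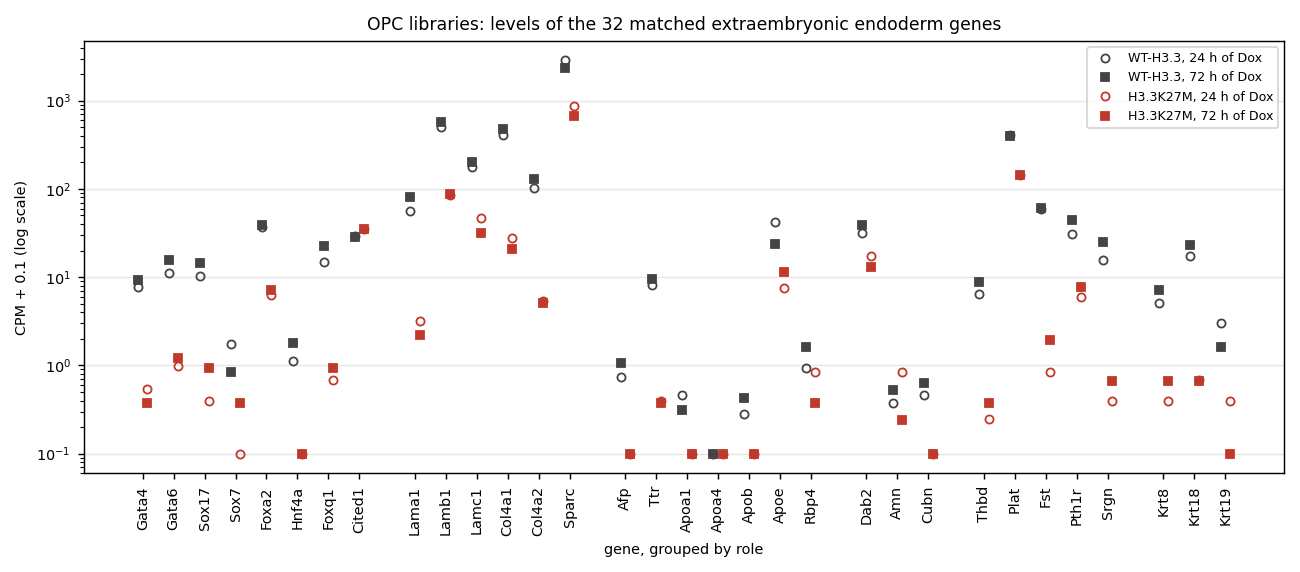
CPM plus 0.1, on a log scale, of each gene in the 4 OPC libraries, 2 of WT and 2 of K27M (24 and 72 h of Dox). CPM is on the vertical axis. The K27M points lie below the WT points for all called genes, as for Fst at 0.739 and 1.82 CPM against 58.5 and 61.2 CPM. They are at nearly the same height for Cited1.

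Fst was at 58.5 CPM at 24 h and 61.2 CPM at 72 h in WT OPCs and at 0.739 and 1.82 CPM in K27M OPCs, and fell by 5.51 (SE 0.28, adjusted p = 2.0e-07, edgeR) on the log2 scale. Srgn was at 15.7 and 24.9 CPM against 0.296 and 0.56 CPM, and Krt18 at 17.5 and 23.1 CPM against 0.591 and 0.56 CPM, with differences of -5.50 (SE 0.45) and -5.10 (SE 0.37). In each case the K27M values were close to the limit of detection, since 3 counts correspond to 0.276 to 0.444 CPM in these libraries.

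Gata4 was at 7.54 and 9.23 CPM in WT against 0.444 and 0.28 CPM in K27M OPCs (-4.48, SE 0.47), and Gata6 at 11.1 and 15.7 CPM against 0.887 and 1.12 CPM (-3.71, SE 0.38). Sox17 was at 10.2 and 14.5 CPM against 0.296 and 0.84 CPM (-4.38, SE 0.45). Foxa2 was at 6.21 and 7.14 CPM in K27M against 36.7 and 38.8 CPM in WT (-2.49, SE 0.20), so it was still detected well above the 3-count limit. Lama1 was at 56.6 and 81.8 CPM against 3.10 and 2.10 CPM, a fall that exceeded those of its partner chains (-4.72, SE 0.29, against -2.63, SE 0.14, for Lamb1 and -2.28, SE 0.19, for Lamc1), though the differences between chains were not tested. Sparc, at 2861 and 2376 CPM against 866 and 675 CPM, fell by 1.75 (SE 0.17). Col4a1, at 407 and 472 CPM against 27.5 and 20.6 CPM, fell by 4.18 (SE 0.19) in the fit that kept chromosome 8, where Col4a2 fell by 4.48 (SE 0.21) and Plat fell by 1.49 (SE 0.13). Ttr was at 8.10 and 9.45 CPM in WT, its highest levels in the study, against 0.296 and 0.28 CPM (-4.85, SE 0.47). Foxq1, Thbd, Krt8, Krt19, Pth1r, Apoe and Dab2 fell as well, by log2 differences from -5.03 (Thbd) to -1.22 (Dab2, SE 0.21).

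Genes at 0 in both K27M OPC libraries were not tested. Hnf4a, at 1.01 and 1.72 CPM in WT, was at least 3.16-fold higher there than the 3-count limit of K27M, Afp at least 1.86-fold and Cubn at least 1.05-fold, whereas Apoa1 and Apob, at most 0.368 and 0.322 CPM in WT, lay under the 3-count limit of the K27M libraries. Sox7, Rbp4 and Amn were below 2 CPM in all 4 libraries.

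Markers of other cell types moved with the OPC difference. Fibroblast markers (8 of 8 detected) summed to 612.5 and 679 CPM in WT and to 25.5 and 29.7 CPM in K27M, 7 of them lower in edgeR's test and Thy1 higher. Endothelial markers summed to 29.9 to 45.5 CPM in WT and to 3.22 to 7.69 CPM in K27M, and pluripotency markers to 103 to 113 CPM and to 22.5 to 23.6 CPM. The pluripotency sum in WT was nearly all Klf4, at 111 and 101 CPM against 5.91 and 7.84 CPM in K27M, while Esrrb rose 9.52-fold in K27M (adjusted p = 6.6e-06, edgeR) and Pou5f1 was at 0 in both lines. Neural progenitor markers summed to 255 to 256 CPM in WT and to 335 to 337 CPM in K27M. The share of the endoderm difference that goes with these markers was not tested, and the 2 libraries of each line differ in Dox time and, by their titles, in replicate number (1 at 72 h and 2 at 24 h), although the column headers number all 4 as replicate 2.

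Against ESCs of 24 and 72 h, 15 of 27 genes rose and 5 fell in WT OPCs (31.1% and 35.8% of all genes), and 8 rose and 11 fell in K27M OPCs (28.5% and 36.1%). Foxa2 (9.45, SE 0.42, in WT and 7.54, SE 0.63, in K27M), Gata6 (5.93 and 2.66) and Pth1r (6.81 and 4.94) rose in both, from ESC libraries with 0 to 6 counts each, so the sizes depend on the prior count. Gata4 (-3.12, SE 0.53), Lama1 (-5.20, SE 0.46) and Krt18 (-4.53, SE 0.39) fell in K27M OPCs to below their level in ESCs, whereas in WT they did not pass edgeR's test with TMM scaling, with log2 differences of 0.57, 0.01 and 0.65, though Krt18 passed in WT by DESeq2 and with RLE scaling. Apoe fell in both, by -4.23 (SE 0.29) and -5.90 (SE 0.32). RLE scaling moved the median of all genes from -0.14 to 0.23 in WT and from -0.24 to 0.12 in K27M, and the calls that were higher from 4953 of 10654 to 5797 of 10729 and from 4535 of 10285 to 5402 of 10304, with 16 genes higher and 4 lower in WT and 9 higher and 11 lower in K27M.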

How the data were processed

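Gene counts of 42 libraries were used. Per the study's methods, the authors aligned reads with STAR 2.7.1 to mm9, and the deposited counts are raw, per Ensembl gene and not normalized. Per the labels and methods, libraries came from QuantSeq 3′ or KAPA kits and replicates were repeated weeks apart, and RA libraries have no replicate. Identifiers were matched to the NCBIM37 annotation for 32589 of 55471 genes (12353 with the same version), which hold 98.17% of counts. The 22882 others entered the fits without a name or chromosome. Spink1 was matched by its RefSeq synonym.

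Genes of chromosome 8 (1435 genes, 5.78% of counts) were left out, as in the methods, and kept in an alternative. Counts were filtered with filterByExpr, scaled by TMM and tested by edgeR 4.0.16 (quasi-likelihood F test) with Benjamini-Hochberg adjustment over all genes, in R 4.3.3 with limma 3.58.1. Calls needed an adjusted p under 0.05 and a fold of at least 2 or at most 0.5. The study's methods used DESeq2 and MATLAB, and pooled the Dox times of RA cells. Here the RA fit had line and Dox time as terms, which leaves 2 residual degrees of freedom, the ESC fit had a mean for each group and time, RA and OPC cells were compared with ESCs of 24 and 72 h, and the OPC fit had the line alone. The SE is the log2 fold change divided by the square root of F. CPM are per TMM-scaled library, and a floor is 3 counts, which covers counting error only.

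The genes and lists were chosen with earlier results of these data known. All 33 genes are named, values in every library are given for those called between RA lines or defining a role, and other genes are named only from fixed lists, of which 1 gene is not reported here.

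On simulated counts, 4-fold changes in 200 genes were recovered at 97.0% for K27M against WT in RA cells (11921 genes), 97.5% in OPCs (12331 genes) and 100.0% in ESCs (13772 genes), and at 100.0% for RA against WT ESCs (14545 genes). The changed genes were drawn from well-expressed genes, with a single fixed dispersion and no effect of Dox time. These rates therefore do not give the power for 2-fold differences or for genes with low counts. No 2 libraries were copies (chi-square of at least 1.85 per gene). Same-numbered WT and K27M ESC libraries deviated together (correlations 0.613 to 0.718 over 8506 genes) and so pair. Same-numbered libraries of WT and K27L deviated in opposite directions at 4, 8 and 24 h (-0.605, -0.712 and -0.682), and at 72 h the value was 0.260. They therefore do not pair by number. With the K27L numbers crossed in a block, the common dispersion of the ESC fit was 0.031. It was 0.0429 with the numbers as given and 0.0461 without a block. Those of GSK343 (-0.462 to 0.586) do not pair by number either, and the OPC value was 0.288.

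Alternatives were DESeq2 1.42.0, RLE scaling (DESeq2's size factor method), no filter on low counts, chromosome 8 kept, Dox times pooled, no line term, a replicate block and each library left out. A crossed block for K27L and leaving out replicate 2 of the K27L ESCs were added after seeing the data. Promoters came from RefSeq (GRCm38.p6) and were not used with mm9 coordinates. Text and figures were made with Python 3.11.15, NumPy 2.4.6, pandas 2.3.3 and Matplotlib 3.10.9. No column of per-sample values was left unused.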

Additional observations from a re-analysis of the deposited data

Results flagged for a closer look

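In ESC groups of 8 libraries, 84 groups (21 genes in 4 groups) were checked for 1 library far from the others, and chance flags about 1 in 20. Hnf4a stood apart in K27M at 4 h replicate 2 (4.10 CPM), Lamb1 in K27L at 72 h replicate 1 (80.3 CPM), Col4a2 in WT at 8 h replicate 2 (12.2 CPM), Rbp4 in WT at 24 h replicate 1 (2.22 CPM from 18 counts) and Dab2 in K27M at 24 h replicate 1 (8.16 CPM from 68 counts). In the K27L library of 72 h replicate 2, which holds 68378 counts, Sparc (149 CPM from 11 counts) and Rbp4 (13.6 CPM from 1 count) stood apart.

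The difference between K27L and WT differed between RA cells and ESCs for Dab2, by 4.12 on the log2 scale, and for Srgn, by 3.45, in edgeR's interaction test. Dab2 was the higher gene in K27L RA cells and the lower one in K27L ESCs. Srgn differed in K27L ESCs by -0.91 (SE 0.39, adjusted p = 0.16) and did not pass there.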

How the results depend on the processing

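Values here are numbers of extraembryonic endoderm genes called, by edgeR unless another tool is named, and the cause of a change was not tested. For K27M against WT in RA cells, the 0 called became 3 by DESeq2 (324 genes of all at an unadjusted p under 0.05), 6 with no filter on low counts and 0 to 14 with each library left out. For K27L the 16 called against WT became 0 with Dox times pooled (187 genes of all at an unadjusted p under 0.05) and 8 to 21 with each library left out, and the 22 against K27M became 0 with times pooled (288 genes of all) and 11 to 22. For the difference between RA cells and ESCs, K27M gave 2 with no filter and 0 to 0 with each library left out, and K27L gave 5 by DESeq2, 8 with no filter, 4 without the K27L ESC libraries of replicate 2 and 0 to 4 with each library left out. For K27L against WT in ESCs, the 1 called became 3 with no filter, 3 without the libraries of replicate 2, and 0 (without K27L at 72 h replicate 1) to 3 (without WT at 8 h replicate 2).

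In the other comparisons the count stayed within 1.5 times under every alternative run. With each library left out it ran from 15 to 20 for 72 against 24 h in RA cells, from 21 to 24, 23 to 24 and 24 to 26 for RA cells against ESCs in WT, K27M and K27L, from 20 to 21 for K27M against WT in OPCs, from 18 to 20 and 16 to 19 for OPCs against ESCs in WT and K27M, and was 0 for K27M and for GSK343 in ESCs. With the replicate block, the paired fits called 0, 1 and 0 genes for K27M, K27L and GSK343 against WT in ESCs, 23, 23 and 26 for RA cells against ESCs, 0 and 2 for the difference between RA cells and ESCs, 19 and 18 for OPCs against ESCs, and 19 for K27M in OPCs, where the block is the Dox time. The block changed none of these counts by over 1.5 times, but over all genes it moved the calls between K27M and WT ESCs from 2 to 24, and crossed numbers in K27L gave 522 genes of all and 1 extraembryonic endoderm gene.

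Of the single gene fold changes, 1 turned its sign, Apob between K27L and K27M in RA cells, which became -3.18 (SE 4.64, adjusted p = 0.819) without the RA K27L library of 24 h and reached 3.22 (adjusted p = 0.852) without the RA K27M library of 24 h. Of the others, 1884 kept direction and side of the threshold and 133 kept the direction but no longer passed. Depth limits the serum proteins and, in OPCs, the K27M values of most genes, and in the K27L ESC library of 68378 counts 3 counts correspond to 40.7 CPM.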

Other observations

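Genes of the same tissues outside the list were read from fixed lists. Of 13 other basement membrane genes and collagen enzymes, 4 rose in K27L over WT in RA cells, the nidogen Nid2 by 1.02 and the collagen-modifying enzymes P4ha1, P4ha2 and Plod2 by 1.22, 1.07 and 1.23 on the log2 scale in edgeR's test, and 6 did so over K27M, where 1.52% and 3.58% of all genes rose. Among the reported genes of a list of 15 other visceral endoderm genes, Spink1 rose by 1.64 over WT. Over K27M, Spink1, Ihh and S100g rose by 2.23, 2.09 and 1.89. None of the reported ones was called lower in K27L. Foxa1, which was not called, held 109 and 39 counts in the K27L libraries against 141 and 50 in the smaller WT libraries. A further list held 9 genes chosen for primitive endoderm specification by FGF signalling, a pathway that promotes this fate in the embryo. Of these, 7 could be tested. Pdgfra, which encodes a PDGF receptor and not an FGF receptor, rose by 1.12. Spry2 rose by 1.24 and Dusp6 fell by 1.17. The neural progenitor marker Nes fell by 1.28 and the cardiac marker Actc1 fell by 2.17, while Klf4, a pluripotency factor, rose by 1.44.

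In OPCs, 6 of the 13 basement membrane genes fell in K27M against WT (Nid1, Col18a1, P4ha1, P4ha2, Plod2 and Plod3) and Agrn rose, and 6 of the 8 visceral endoderm genes that could be tested fell (Bmp2, Fgb, Ihh, Lrp2, S100g and Spink1), where 15.0% of all genes fell. Etv4 and Etv5, targets of FGF signalling, rose, and Fgfr2 and Pdgfra fell. In the K27L ESC libraries of replicate 2, chromosome 8 held 3.43% to 4.07% of counts, against 5.61% to 5.86% in those of replicate 1.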
